A study of Mus musculus with 19 samples.

Results

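Jchain, Mzb1 and 7 other genes whose products help B cells make and export antibody were followed through RNA-seq of sorted mouse B lineage cells. The 9 genes (Jchain, Mzb1, Derl3, Fkbp11, Txndc5, Sec11c, Ell2, Eaf2 and Hnrnpll) were chosen by symbol, and all 9 stand in each of the 4 deposited expression tables, among 22101 genes listed in at least 1 table. Mice were immunized by intraperitoneal injection of sheep red blood cells, and cells were sorted on day 28. The 19 libraries form 6 groups, and the series design gives 3 wild-type mice and 4 mice with a knockout of Pik3cg, the gene of the gamma catalytic subunit of phosphoinositide 3-kinase. CD138+ antibody-secreting cells came from bone marrow (n = 3) and from spleen (n = 3), both labelled wild type. Splenic germinal centre B cells, gated as CD95+ and GL7+, were labelled Pik3cg knockout (n = 4) or wild type (n = 3). Splenic naive B cells, gated as CD3-, B220+ and IgD+, were likewise labelled knockout (n = 3) or wild type (n = 3). The labels do not give the exons deleted, the tissue of the deletion, or the age of the mice. Column headers for naive and secreting cells read HET where the sample labels read wild type, and the genotype names used here are those of the sample labels.

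Antibody-secreting cells turn out immunoglobulin at a rate that fills the endoplasmic reticulum (ER), and they enlarge that compartment and its folding machinery to do so. The J chain protein is joined to the tails of IgM and IgA so that these classes are secreted as polymers that epithelia can transport. The heavy-chain transcript is also processed differently, so that its secreted form replaces the membrane form. The 9 genes serve these steps: Jchain and Mzb1 in polymer assembly, Sec11c in signal peptide removal, Txndc5 and Fkbp11 in folding, Derl3 in disposal of misfolded protein, and Ell2, Eaf2 and Hnrnpll in transcription and RNA processing.

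Upstream sequences in the RefSeq promoter table (GRCm38.p6, 250 bases before to 50 bases after each start) were found for 6 of the 9 genes, in 11 windows. Mzb1, Sec11c and Hnrnpll were not in that table. Each window was searched on both strands for letters bound by factors of the unfolded protein response, the stress pathway that enlarges the ER. The ER stress response element, CCAAT and CCACG with 9 bases of any kind between them, was found in 39 of 32851 windows of all genes (0.119%), and among the 11 member windows only in that of Derl3, starting 156 bases before its start (chr10:75893242-75893260, minus-strand reading). The core TGACGTGG, read by Xbp1 and Atf6, was found in 0.676% of windows, and among the 11 only in 1 of the 3 Txndc5 windows, starting 138 bases before an internal start. The shorter ACGTGG, which lies within that core, was found in 2729 windows (8.31%), and in windows of Derl3, Fkbp11 and Txndc5. CCACG, which overlaps all of these, was found in 10765 windows (32.8%). A second ER stress element (ATTGG, 1 base of any kind, CCACG), the octamer ATGCAAAT and GAAAG followed directly by TGAAA, a sequence bound by Prdm1 and Irf factors, were in none of the 11. The windows of Jchain, Ell2 and Eaf2 carried none of the 7 motifs. All 250 upstream bases of the only Ell2 window lay in annotated exons of the gene, as did 103 of those in 1 Eaf2 window. The 250 bases upstream of Jchain (chr5:88527898-88528147, minus strand), Derl3 (chr10:75893148-75893397, plus strand) and the internal Txndc5 start (chr13:38527915-38528164, minus strand, inside the gene and in no exon) are printed. Those of Derl3 and Txndc5 hold the rare matches, and Jchain is among the genes with no match. Capitals mark the fixed letters of the matches.
Jchain: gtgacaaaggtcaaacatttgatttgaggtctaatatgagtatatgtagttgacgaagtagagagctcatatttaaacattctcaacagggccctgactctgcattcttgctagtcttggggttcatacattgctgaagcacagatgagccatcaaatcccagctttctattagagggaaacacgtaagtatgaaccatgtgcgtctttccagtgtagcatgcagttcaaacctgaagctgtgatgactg
Derl3: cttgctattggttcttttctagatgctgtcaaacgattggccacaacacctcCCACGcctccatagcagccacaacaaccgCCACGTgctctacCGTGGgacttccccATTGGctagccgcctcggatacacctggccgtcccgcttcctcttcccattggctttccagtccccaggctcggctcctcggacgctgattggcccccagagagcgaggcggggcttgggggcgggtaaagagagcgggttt
Txndc5: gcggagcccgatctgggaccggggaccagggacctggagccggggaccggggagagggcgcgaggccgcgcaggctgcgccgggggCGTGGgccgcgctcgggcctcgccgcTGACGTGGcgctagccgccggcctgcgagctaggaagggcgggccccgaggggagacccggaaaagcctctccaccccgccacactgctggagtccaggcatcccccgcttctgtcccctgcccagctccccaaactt

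The deposited values are counts per 1000000 assigned reads (CPM), at a depth of 10.2 to 21.6 M reads per library (M, 1000000). Immunoglobulin rows took 64.9% to 70.2% of CPM in bone marrow secreting cells and 61.5% to 66.1% in splenic ones, so every other gene is pressed down on this scale. Each level is therefore also given per 1000000 reads outside immunoglobulin rows and Jchain, called the outside-immunoglobulin scale. The tables were made separately, so levels across them are described with no test. In bulk libraries, fewer cells of a type and less RNA per cell cannot be told apart. Nothing in the labels ties the libraries of a group to separate cultures or litters, so p-values measure the spread between these samples.

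The germinal centre libraries need a caution before any genotype comparison. Of 8 germinal centre markers, Rgs13, Gcsam and S1pr2 had a value of 0 in every wild-type-labelled library. The 8 markers summed to 2763 to 3725 CPM with the knockout label against 484 to 668 CPM with the wild-type label. T cell markers (12 genes) summed to 1081 to 2257 CPM in knockout-labelled libraries and 52.8 to 89.8 CPM in wild-type-labelled ones, where 8 of them were at 0. Monocyte and macrophage markers (10 genes) overlapped, at 149 to 1759 CPM with the knockout label and 77.2 to 202 CPM with the wild-type label, with 7 at 0 in every wild-type-labelled library. Pik3cg itself did not pass the test in germinal centre cells (log2 fold change −0.60, limma adjusted p = 0.696) or in naive cells (−0.08, limma adjusted p = 0.935). Directions below are therefore those of the labels.

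Jchain and the ER helpers were highest in the secreting cells once the immunoglobulin load was taken out, but on plain CPM several of them peaked in germinal centre cells. Jchain led by far in secreting cells on either scale. Mzb1 and Sec11c had their highest CPM in germinal centre B cells labelled wild type, and Eaf2 in those labelled knockout. Txndc5 was higher in naive than in germinal centre libraries labelled knockout, and Hnrnpll was low throughout, with no library above 17.1 CPM.

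**Figure D1:**
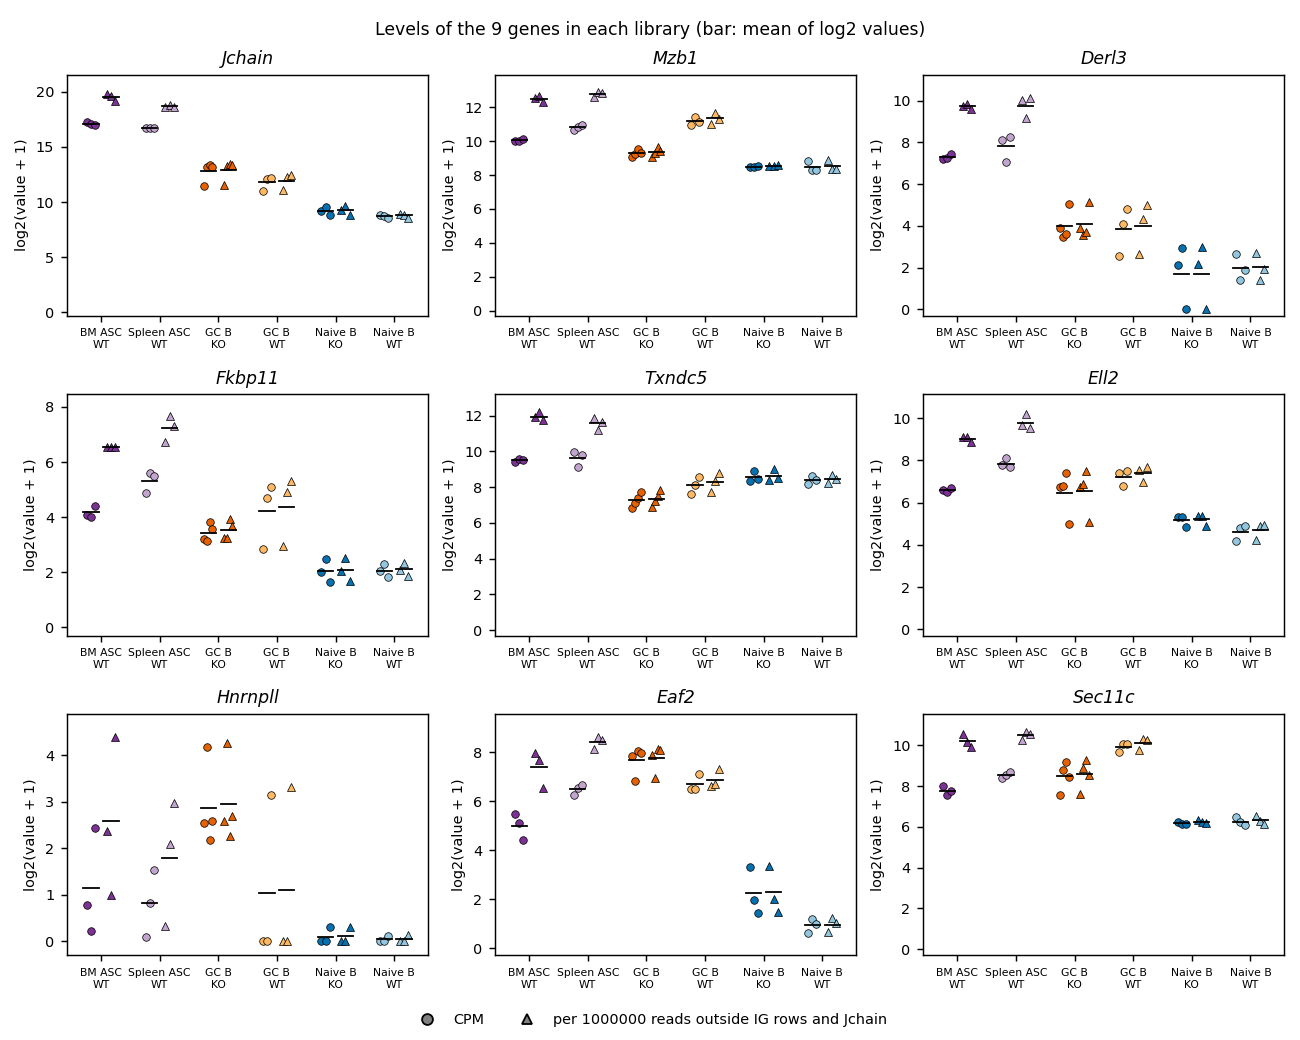
Levels of the 9 genes in each of the 19 libraries, as log2(value + 1), with circles for CPM and triangles for the outside-immunoglobulin scale; bars are means of the log2 values of a group. BM ASC and Spleen ASC are antibody-secreting cells of bone marrow and spleen, GC is germinal centre, and KO and WT are the labelled genotypes. Jchain falls in 3 steps across secreting, germinal centre and naive cells, while Txndc5 is lowest in germinal centre cells.

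Jchain (chromosome 5, 88519809 to 88527891, minus strand; this and later gene positions are mm10, GENCODE M21) encodes the joining chain. Its CPM was 154224, 133480.0 and 130527 in bone marrow secreting cells and 107571, 105471 and 108142 in splenic ones. Every secreting-cell library stood above every other library, and the bone marrow libraries stood above the splenic ones. Germinal centre libraries lay in between, at 2833, 9022, 10421 and 9416 CPM when labelled knockout and 2071, 4311 and 4775 CPM when labelled wild type. The 2 genotypes overlapped there, because labelled-knockout replicate 1 lay below 2 of the 3 libraries labelled wild type. Naive cells labelled knockout had 589, 744 and 449 CPM and those labelled wild type 467, 432 and 369.9 CPM. All naive libraries lay below all germinal centre libraries. Jchain alone took 13.1% to 15.4% of all CPM in bone marrow secreting cells and 10.5% to 10.8% in splenic ones.

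Mzb1 (chromosome 18, 35647267 to 35649367, minus strand) encodes an ER protein of B cells that works with the chaperone Hsp90b1 and helps attach J chain to IgA. It stood at 1038, 1046 and 1119 CPM in bone marrow secreting cells, 1645, 1788 and 2001 CPM in splenic ones, 529.5, 594, 740.3 and 634 CPM in germinal centre cells labelled knockout and 1956, 2782 and 2201 CPM in those labelled wild type. Naive cells had 349 to 367.3 CPM when labelled knockout and 312 to 450.0 CPM when labelled wild type. Mzb1 spanned a much narrower range over the groups than Jchain did. On the outside-immunoglobulin scale the secreting cells came first, at 5825 ± 661 in bone marrow and 7009 ± 821 in spleen (SD, n = 3 each), with overlapping ranges. Germinal centre cells labelled wild type followed at 2623 ± 561 (SD, n = 3).

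Sec11c (chromosome 18, 65800515 to 65817684, plus strand) encodes a catalytic subunit of the signal peptidase complex, which cuts the leader from proteins entering the ER. Levels were 256, 191 and 214 CPM in bone marrow secreting cells, 332, 372 and 418 CPM in splenic ones, 190.1, 441, 569.5 and 344 CPM in germinal centre cells labelled knockout and 810.1, 1078 and 1057 CPM in those labelled wild type. Naive libraries had 68.6 to 75.3 CPM when labelled knockout and 66.4 to 87.5 CPM when labelled wild type. All 3 germinal centre libraries labelled wild type stood above every other library on CPM. On the outside-immunoglobulin scale both secreting groups overlapped them, at 976 to 1482 in bone marrow and 1229 to 1601 in spleen against 871 to 1247 in the germinal centre.

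Derl3 (chromosome 10, 75893413 to 75895941, plus strand) encodes a derlin, a membrane protein that passes misfolded protein out of the ER for degradation. Bone marrow secreting cells had 147, 150.0 and 171 CPM and splenic ones 281.1, 132 and 305 CPM. Splenic replicate 2 lay below all 3 bone marrow libraries while the other splenic ones lay above them, so the tissues overlapped. Germinal centre cells had 13.8, 10.1, 11.2 and 32.0 CPM when labelled knockout and 4.95, 16.3 and 27.0 CPM when labelled wild type, and naive libraries reached at most 6.65 CPM. Each secreting-cell library stood above each other library.

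Fkbp11 (chromosome 15, 98724366 to 98728198, minus strand) encodes an ER member of the FK506-binding prolyl isomerases. It stood at 16.0, 15.0 and 20.3 CPM in bone marrow secreting cells and 28.0, 47.3 and 43.6 CPM in splenic ones. Germinal centre cells had 8.28, 7.87, 13.2 and 10.8 CPM when labelled knockout and 6.20, 25.1 and 33.3 CPM when labelled wild type, and naive libraries 2.12 to 4.52 CPM when labelled knockout and 2.55 to 3.86 CPM when labelled wild type. On CPM the germinal centre group labelled wild type overlapped both secreting groups. On the outside-immunoglobulin scale bone marrow (91.4 to 92.6) and spleen (104 to 204) stood above all other libraries.

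Txndc5 (chromosome 13, 38500079 to 38528824, minus strand) encodes a protein disulfide isomerase of the ER. Secreting cells had 672, 757 and 743 CPM in bone marrow and 997, 551 and 889.5 CPM in spleen. Germinal centre cells were lowest by mean, at 113, 139, 165 and 209.9 CPM when labelled knockout and 197, 274.6 and 385 CPM when labelled wild type. Naive cells stood between, at 327, 485 and 356 CPM when labelled knockout and 283.1, 387 and 340.3 CPM when labelled wild type. No other member had its lowest group mean in a germinal centre group.

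Ell2 (chromosome 13, 75706757 to 75772364, plus strand) encodes a transcription elongation factor that favours the secreted form of the immunoglobulin heavy chain. Bone marrow secreting cells had 96.4, 89.5 and 102 CPM and splenic ones, which led on both scales, 219, 274.2 and 204 CPM. Germinal centre cells had 104, 111, 169 and 30.5 CPM when labelled knockout and 170.5, 109.8 and 179 CPM when labelled wild type, and naive cells 27.9 to 39.3 CPM when labelled knockout and 17.0 to 28.8 CPM when labelled wild type. On CPM the bone marrow libraries lay inside the range of the germinal centre libraries labelled knockout, whose replicate 4 was lowest.

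Eaf2 (chromosome 16, 36792884 to 36875003, minus strand) encodes a partner of the ELL elongation factors. Its CPM was highest in germinal centre cells, at 230.4, 114, 262 and 250.1 when labelled knockout and 90.3, 88.7 and 136 when labelled wild type. Secreting cells had 43.4, 33.3 and 20.4 CPM in bone marrow and 76.1, 91.4 and 101 CPM in spleen. In naive cells it was nearly silent, at 8.99, 2.86 and 1.72 CPM when labelled knockout and 0.536, 1.29 and 0.967 CPM when labelled wild type. Every naive library lay below every library of the other groups on both scales. Eaf2 averages 10 CPM only through those other groups, and the share of all genes with this separation was not computed, so this is a description. On the outside-immunoglobulin scale splenic secreting cells (281.9 to 393) overlapped germinal centre cells labelled knockout (121 to 283.4).

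Hnrnpll (chromosome 17, 80029487 to 80062334, minus strand) encodes an RNA-binding protein that promotes the secreted heavy-chain form and exon skipping in CD45. It was at 4.83, 17.1, 3.52 and 5.04 CPM in germinal centre cells labelled knockout and 0, 0 and 7.80 CPM in those labelled wild type. Secreting cells had 0.162 to 4.37 CPM in bone marrow and 0.0690 to 1.89 CPM in spleen, and the highest naive library had 0.235 CPM. The worth of 3 reads ran from 0.139 to 0.293 CPM over the libraries, so the naive values, and 1 or more libraries in each other group save the germinal centre libraries labelled knockout, lay at or under that floor. Hnrnpll reached the mean of 10 CPM needed for a test in no comparison.

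Per kilobase of exon, which allows levels to be compared between genes, Jchain led in splenic secreting cells at 42535 ± 559 CPM per kb (SD, n = 3). Mzb1 followed at 1491 ± 147, Txndc5 at 181 ± 51.7, Derl3 at 120.1 ± 47.0 and Sec11c at 54.9 ± 6.33 CPM per kb. Ell2, Eaf2 and Fkbp11 lay at 14.7 to 23.6 CPM per kb, and Hnrnpll at 0.0777. In naive cells labelled wild type the leading pair was turned round, with Mzb1 at 296.1 ± 64.4 CPM per kb above Jchain at 168 ± 19.5 (SD, n = 3 each). Lengths are those of all annotated exons, so a gene whose transcripts use few of them has a level per kilobase that is too low.

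Every member but Hnrnpll was higher in secreting than in naive cells, and the size of the step depended on the scale. In splenic secreting cells over naive cells labelled wild type, Jchain was 253-fold higher on CPM and 939-fold on the outside-immunoglobulin scale. Mzb1 was 5.04-fold and 18.7-fold higher, Sec11c 4.93-fold and 18.3-fold, Txndc5 2.41-fold and 8.80-fold, and Ell2 9.55-fold and 35.8-fold. These 5 genes reach a mean of 10 CPM in both groups, and for each the groups did not overlap and differed at least 2-fold on both scales. Of the 7645 genes that averaged 10 CPM or more over both groups, 4.72% were higher by this rule and 78.9% lower on CPM, and 15% were higher and 17.7% lower on the outside-immunoglobulin scale. The median log2 ratio of those genes was −1.94 on CPM and −0.16 outside immunoglobulin. Eaf2 (96.4-fold and 358-fold), Derl3 (73.9-fold and 267-fold) and Fkbp11 (12.5-fold and 46.7-fold) pass the 10 CPM filter only through the secreting cells, so their size is given as a description and counts for nothing beyond it. Hnrnpll was at or under the floor in naive cells and is given no fold.

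Bone marrow secreting cells showed the same step against the same naive libraries, which both comparisons share. On the outside-immunoglobulin scale Jchain was 1737-fold higher, Mzb1 15.5-fold, Sec11c 15.3-fold, Txndc5 11.3-fold and Ell2 20.6-fold. On CPM these folds were 330, 2.97, 2.91, 2.15 and 3.95. Each met the rule on both scales, against 3.56% of 7439 genes higher and 85.8% lower on CPM, and 14.5% higher and 15.8% lower outside immunoglobulin.

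Relatives of the members differed widely in how far they took part in this step (outside-immunoglobulin scale, splenic secreting over naive cells labelled wild type). The derlins Derl1 and Derl2 were 4.72-fold and 3.35-fold higher. Fkbp2, an ER relative of Fkbp11, was 12.4-fold higher. The isomerases Pdia4 and Pdia6 were 11.5-fold and 8.19-fold higher, as Txndc5 was 8.80-fold. Sec11a, the other catalytic subunit of the signal peptidase, was 1.72-fold higher, less than 1 in 10 of the ratio of Sec11c. The elongation relatives behaved differently from Ell2 and Eaf2. Ell and Eaf1 overlapped between the groups, at ratios of 0.937 and 0.818, and Ell3 was lower, at 1.60 ± 1.79 in secreting and 73.5 ± 18.4 in naive cells (SD, n = 3 each). Hnrnpl overlapped, at a ratio of 1.12. On CPM Derl1, Fkbp2, Pdia4 and Pdia6 were still higher by mean in secreting cells. Sec11a turned lower on CPM, at 44.5 ± 6.80 in secreting and 96.1 ± 15.4 in naive cells. Derl2 was lower by mean too, at 79.2 ± 8.81 and 87.7 ± 6.16 CPM (SD, n = 3 each), as were Ell, Ell3, Eaf1 and Hnrnpl. All-gene shares for both scales are those given above for splenic secreting over naive cells.

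Most genes of the wider ER pathways were also higher on the outside-immunoglobulin scale. In splenic secreting over naive cells, 21 of 28 ER chaperone and oxidative folding genes were at least 2-fold higher without overlap and 1 was lower, with a median log2 ratio of 2.85 on that scale. The translocation and signal peptidase list had 20 of 22 higher and none lower (median 2.66), ER-associated degradation 13 of 19 (median 2.37) and N-glycosylation 12 of 16 (median 2.00), none lower in either. The background was 15% higher and 17.7% lower among all genes. Lists of transcript handling did not share this: the elongation list had 1 of 13 higher and 3 lower (median −0.28), and immunoglobulin pre-mRNA processing 0 of 15 higher and 5 lower (median −0.60). On CPM the counts were far lower upward: 14 higher and 7 lower among ER chaperones, 8 and 2 in translocation, 6 and 3 in ER-associated degradation and 3 and 3 in N-glycosylation. On CPM the elongation list had 1 higher and 12 lower, and pre-mRNA processing 0 higher and 14 lower. The CPM background was 4.72% higher and 78.9% lower. Back on the outside-immunoglobulin scale, plasma cell transcription factors were higher in 10 of 12 genes (5 higher and 1 lower on CPM). Among them Xbp1 was 45.1-fold higher, and Prdm1, which passes the 10 CPM filter only through the secreting cells, was at 111, 38.5 and 105 CPM in secreting and 0, 7.80 and 0.176 CPM in naive libraries. B cell transcription factors were lower in 7 of 8 (8 of 8 on CPM). Among them Pax5, which passes the 10 CPM filter only through the naive cells, was at 1.45 ± 0.715 in secreting and 226 ± 15.6 in naive cells (SD, n = 3 each). The lists hold genes that also belong to the secreting programme by textbook, and their counts describe these libraries. The counts include genes that pass the filter only through the group where they are high, such as Prdm1, Pax5 and Ell3, whose direction the filter sets.

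Bone marrow and splenic secreting cells differed for Jchain in one direction and for Ell2, Fkbp11 and Eaf2 in the other. Samples with the same number deviated together in the 2 tissues, so ratios are also given per numbered pair. Jchain was 1.30-fold higher in bone marrow on CPM (log2 ratios 0.52, 0.34 and 0.27) and 1.85-fold on the outside-immunoglobulin scale (1.16, 0.84 and 0.60). Of 4091 genes, 2.96% were higher in all 3 pairs on CPM and 19.1% on the outside-immunoglobulin scale. Every bone marrow library lay above every splenic one for Jchain on both scales. The share of all genes whose ranges did not overlap between the tissues, at any fold, was not computed.

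**Figure D2:**
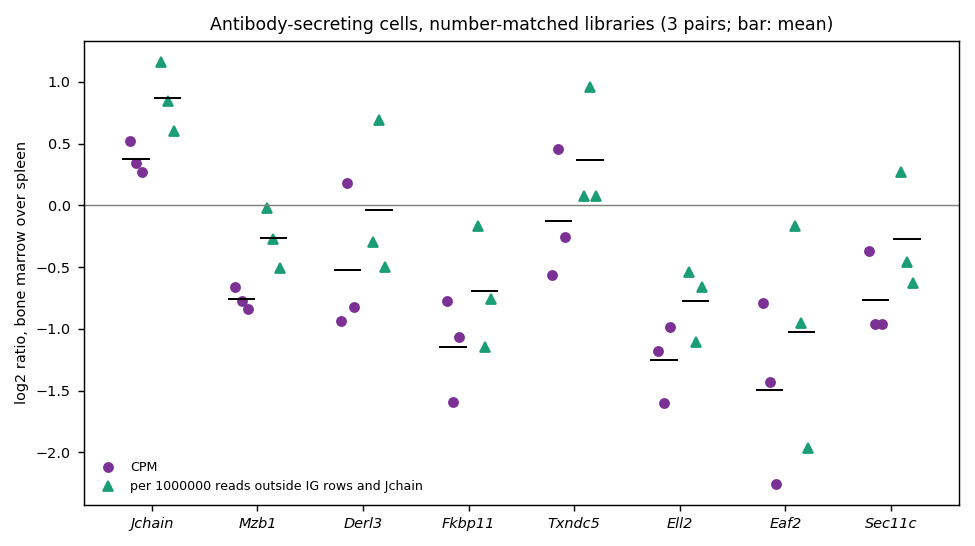
Log2 ratio of bone marrow over splenic secreting cells in each of 3 number-matched pairs, for the 8 genes averaging 10 CPM or more; circles are CPM, triangles the outside-immunoglobulin scale, and bars the mean of 3 pairs. Jchain is above 0 in all pairs on both scales, and Ell2, Fkbp11, Eaf2 and Mzb1 are below 0 in all pairs on both scales. Mzb1 in pair 1 is close to 0 on the outside-immunoglobulin scale, at −0.02.

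Ell2 was lower in bone marrow, at 96.1 ± 6.40 CPM against 232 ± 37.1 CPM in spleen (SD, n = 3 each), with log2 ratios of −1.18, −1.60 and −0.99 in the pairs. On the outside-immunoglobulin scale they were −0.54, −1.11 and −0.66, and the ranges did not overlap. Fkbp11 and Eaf2 had ratios of means of 0.431 and 0.362 on CPM and 0.595 and 0.5256 on the outside-immunoglobulin scale, again without overlap. For these 3 genes, and for Mzb1, all pairs were lower on both scales, where 48.4% of all genes were lower in all 3 pairs on CPM but 16.3% on the outside-immunoglobulin scale. Pair 1 of Mzb1 was lower by little on the outside-immunoglobulin scale, at −0.02. By the rule of no overlap and 2-fold, Ell2, Fkbp11 and Eaf2 were lower on CPM, as were 7.92% of all genes, while 0.244% were higher. Eaf2 varied most between pairs, with outside-immunoglobulin log2 ratios of −0.17, −0.95 and −1.97.

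Mzb1 and Sec11c were lower in bone marrow on CPM, each at a ratio of 0.589 (log2 ratio −0.76). Both were lower in all 3 pairs on CPM, as were 48.4% of all genes. The median log2 ratio of the 4091 genes was −0.40 on CPM and 0.06 outside immunoglobulin. On the outside-immunoglobulin scale the ranges of Mzb1 and Sec11c overlapped, at ratios of 0.831 and 0.834. Derl3 and Txndc5 overlapped on both scales, and the Txndc5 ratio passed from 0.891 on CPM to 1.28 outside immunoglobulin. None of the 8 genes reached a 2-fold difference outside immunoglobulin, where 2% of all genes were higher and 2.27% lower by the rule. Secreting-cell markers (8 genes) summed to 4441 to 4720 CPM in bone marrow and 4646 to 6130 CPM in spleen. Neutrophil markers (8 genes) summed to 55.9 to 278 CPM in bone marrow and 0.061 to 25.7 CPM in spleen, and their part in these ratios was not tested.

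Germinal centre cells stood above naive cells in most members and below them by mean in Txndc5. Over naive cells labelled wild type, germinal centre cells labelled wild type were 8.79-fold higher in Jchain, 6.43-fold in Mzb1, 13.0-fold in Sec11c and 6.29-fold in Ell2 on CPM, each without overlap, where 23.7% of 8820 genes were higher and 22.6% lower by the rule on CPM, and 26% and 20.9% on the outside-immunoglobulin scale. Eaf2, which passes the 10 CPM filter only through the germinal centre, was 113-fold higher, at 105 ± 27.1 CPM in germinal centre and 0.930 ± 0.376 CPM in naive cells (SD, n = 3 each). Fkbp11, which passes the filter in the same way, was 6.76-fold higher without overlap. Derl3 and Txndc5 overlapped. In the labelled knockout, germinal centre cells were 13.3-fold higher than naive cells in Jchain and 5.40-fold in Sec11c, but only 1.74-fold in Mzb1, and Ell2 overlapped. Derl3 and Eaf2, which pass the filter there only through the germinal centre, were 5.05-fold and 47.3-fold higher without overlap. Txndc5 was lower, at a ratio of 0.403 without overlap. By the rule, 20.8% of 8732 genes were higher and 18.9% lower in this comparison on CPM, and 21.3% and 18.4% outside immunoglobulin.

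Against the germinal centre, splenic secreting cells gained most in Jchain, Derl3 and Txndc5. Over germinal centre cells labelled wild type, Jchain was 28.8-fold higher on CPM and 97.6-fold outside immunoglobulin, Derl3 14.9-fold and 48.9-fold, and Txndc5 2.85-fold and 9.52-fold, with no overlap on either scale. Sec11c ran the other way on CPM, at a ratio of 0.381 without overlap, and overlapped outside immunoglobulin at 1.30. Mzb1, Fkbp11 and Eaf2 overlapped on CPM and were 2.67-fold, 6.27-fold and 2.91-fold higher outside immunoglobulin. The rule held upward for 5.9% and downward for 72.2% of 7306 genes on CPM, and for 17.7% and 30% outside immunoglobulin. Over germinal centre cells labelled knockout, the outside-immunoglobulin folds were 50.2 for Derl3, 48.7 for Jchain, 18.4 for Txndc5, 14.4 for Fkbp11, 10.5 for Mzb1, 8.23 for Ell2 and 3.49 for Sec11c, and Eaf2 overlapped at 1.52. On CPM these were 14.2 for Derl3, 13.5 for Jchain, 5.18 for Txndc5, 3.95 for Fkbp11, 2.90 for Mzb1 and 2.24 for Ell2, while Sec11c overlapped at 0.968 and Eaf2 was lower without overlap, at 0.418. There the rule held upward for 5.95% and downward for 64% of 7567 genes on CPM, and for 17.1% and 28.3% outside immunoglobulin. Both comparisons share the splenic libraries.

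Within germinal centre cells, Mzb1 and Sec11c fell in the libraries labelled knockout. A limma fit on log2(CPM + 1), over the 8522 genes that averaged 10 CPM or more, called 1162 (13.6%) at an adjusted p under 0.05. Of the 8 members tested, these 2 were called, both lower, where 5.09% of all genes were called lower and 8.54% higher. The 8 had a median log2 fold change of −0.77 against 0.03 for all genes. Values ran in opposite directions within the group, with Jchain and Eaf2 above 0 and Txndc5, Ell2 and Fkbp11 below, none of them past the threshold.

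**Figure D3:**
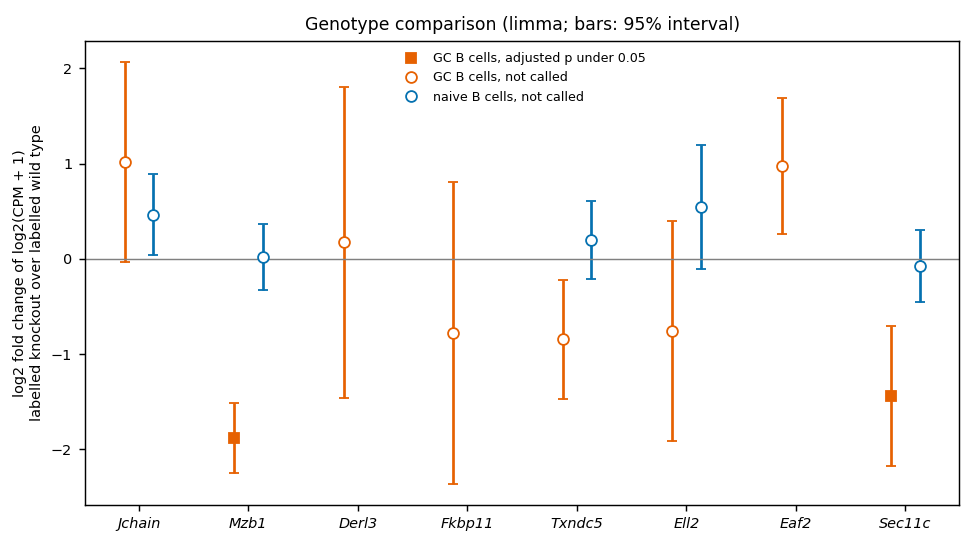
Labelled knockout over labelled wild type as log2 fold change for each testable member, in germinal centre B cells (orange) and naive B cells (blue), from limma on log2(CPM + 1); bars are 95% intervals and the filled square marks an adjusted p under 0.05. Mzb1 and Sec11c in germinal centre cells are the only filled symbols, at −1.88 and −1.44.

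Mzb1 averaged 625 ± 88.3 CPM in labelled knockout (SD, n = 4) and 2313 ± 424 CPM in labelled wild type (SD, n = 3), with no overlap. Its log2 fold change was −1.88 (SE 0.16, 95% interval −2.25 to −1.52, limma adjusted p = 0.000246), and it ranked 34th of the 8522 genes by p. The call held in all 16 alternatives run, between −1.99 and −1.74. The libraries labelled knockout kept Mzb1 above all 3 naive libraries of that label, by less than 2-fold.

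Sec11c averaged 386 ± 160.0 CPM in labelled knockout (SD, n = 4) and 982 ± 149 CPM in labelled wild type (SD, n = 3), a log2 fold change of −1.44 (SE 0.33, 95% interval −2.18 to −0.70, limma adjusted p = 0.0195). The groups did not overlap, as was so for 27.4% of all genes, 15.6% higher and 11.7% lower. The call was lost without labelled-wild-type replicate 2 (−1.37, limma adjusted p = 0.0845) or replicate 3 (−1.38, limma adjusted p = 0.0772). It was also lost, at −1.08 and a limma adjusted p of 0.0636, when replicate 1 of the labelled knockout was left out together with replicate 3 of the labelled wild type, which was chosen with the data in view. Over all 16 alternatives its adjusted p ran from 0.00616 to 0.0845 and 13 kept the call.

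Jchain had a log2 fold change of 1.02 in the opposite direction (95% interval −0.03 to 2.07, limma adjusted p = 0.189), with 3 libraries labelled knockout at 9022 to 10421 CPM and replicate 1 at 2833 CPM. Without that replicate it passed, at 1.46 (limma adjusted p = 0.0188), and likewise at 1.68 (limma adjusted p = 0.0299) when labelled-wild-type replicate 3 was also left out, in a range of 0.0188 to 0.488 over 16 alternatives. Eaf2 had 0.98 (95% interval 0.26 to 1.69, limma adjusted p = 0.0766) and passed without labelled-knockout replicate 2, at 1.26 (limma adjusted p = 0.010, with 0.228 the highest over 16 alternatives). Txndc5 had −0.84 (95% interval −1.47 to −0.22, limma adjusted p = 0.0794) and passed without labelled-knockout replicate 4, at −0.99 (limma adjusted p = 0.0499, in a range of 0.0281 to 0.378). Ell2 (−0.76, 95% interval −1.91 to 0.40), Fkbp11 (−0.78, −2.36 to 0.80) and Derl3 (0.18, −1.46 to 1.81) had intervals that span 0 widely.

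Set against the immunoglobulin transcripts of the same library, Jchain separated the germinal centre groups completely. Immunoglobulin rows took 2.35% to 7.37% of CPM with the knockout label and 6.78% to 13.2% with the wild-type label. Jchain per 100 CPM of immunoglobulin was 12.1, 16.1, 16.5 and 12.8 in labelled knockout, against 3.05, 3.29 and 3.63 in labelled wild type. The means were 14.4 ± 2.25 (SD, n = 4) and 3.32 ± 0.29 (SD, n = 3), a ratio of 4.32 (two-sided exact permutation p = 0.0571, the smallest this test gives for 4 against 3, adjusted p = 0.1 over 2 comparisons). In naive cells the values were 1.55, 1.95 and 1.22 in labelled knockout and 1.13, 1.12 and 0.938 in labelled wild type (ratio 1.48, two-sided exact permutation p = 0.1, the smallest for 3 against 3, adjusted p = 0.1). This measure was chosen after its values had been seen. Secreting cells had 19.01 to 22.9 in bone marrow and 15.9 to 17.6 in spleen, so the germinal centre libraries labelled knockout reached into the splenic range of this ratio.

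**Figure D4:**
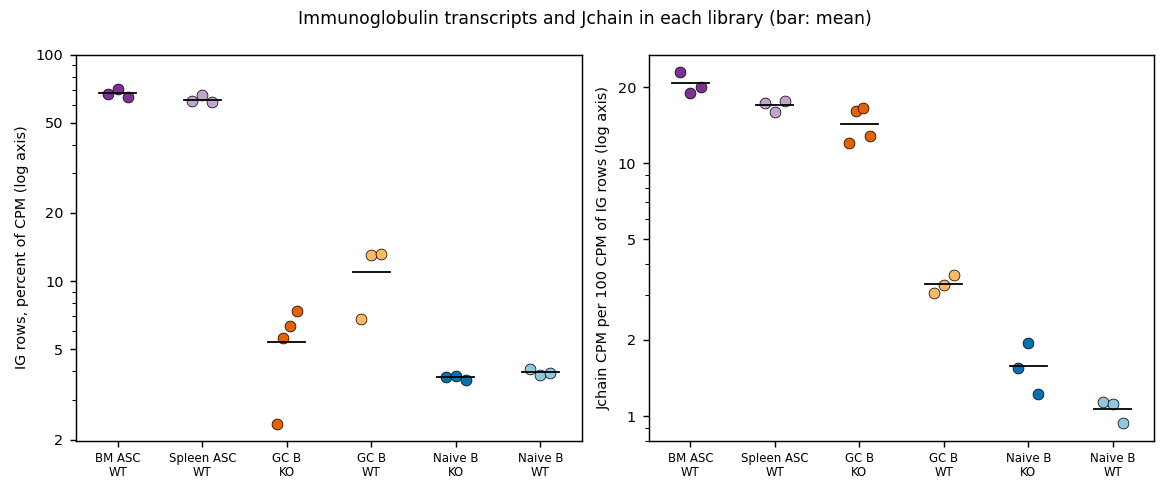
Percent of CPM in immunoglobulin rows (left) and Jchain CPM per 100 CPM of immunoglobulin rows (right) in each of the 19 libraries, on log axes, with bars at the group means. Germinal centre libraries labelled knockout lie at 12.1 to 16.5 on the right, above those labelled wild type at 3.05 to 3.63, while on the left they lie lower by mean.

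Of the heavy chains that J chain joins, Ighm fell in the libraries labelled knockout and Igha did not pass the test. Ighm, the IgM heavy chain, was 5634, 5083, 6415 and 10625 CPM in germinal centre cells labelled knockout and 18131, 39048 and 35288 CPM in those labelled wild type (log2 fold change −2.14, SE 0.32, limma adjusted p = 0.00291). Igha, the IgA heavy chain, was 249, 7179.9, 6637 and 7591 CPM in labelled knockout and 1034, 38.0 and 318 CPM in labelled wild type, where 3 libraries labelled knockout stood above all others and replicate 1, the same that was low in Jchain, stood within the other group (log2 fold change 3.72, SE 1.37, limma adjusted p = 0.111). Bone marrow and splenic secreting cells had 191274 ± 12963 and 139750.0 ± 53739 CPM of Igha (SD, n = 3 each).

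The summed level of secreting-cell markers was also lower in the germinal centre libraries labelled knockout, but not every marker was. The 8 secreting-cell markers summed to 806 to 1136 CPM in labelled knockout and 3306 to 4625 CPM in labelled wild type, to which the ER stress regulator Xbp1 gave most. It stood at 478 ± 83.6 CPM in labelled knockout (SD, n = 4) and 3023 ± 655 CPM in labelled wild type (SD, n = 3). Xbp1 fell by 2.65 on the log2 scale (SE 0.19, limma adjusted p = 9.64e-05). Sdc1, which encodes CD138, was at 7.25, 0, 6.86 and 18.96 CPM in labelled knockout and 19.4, 50.3 and 92.4 CPM in labelled wild type, below its 239 to 404 CPM in splenic secreting cells. Slamf7, another surface marker, was at 233 to 337 CPM in labelled knockout and 503 to 569 CPM in labelled wild type. Tnfrsf17, a receptor of long-lived plasma cells, did not follow, at 0, 19.9, 32.2 and 10.3 CPM in labelled knockout and 0, 7.84 and 0.102 CPM in labelled wild type. Erythroid markers (6 genes listed) summed to 29.7 to 2977 CPM in labelled knockout and 0.051 to 2.41 CPM in labelled wild type, where 4 were at 0. Cd28, which is also on the T cell list, ran the other way without overlap, at 63.7 to 243 CPM in labelled knockout and 12.0 to 41.4 CPM in labelled wild type. The part of secreting, T or erythroid cells in the fall of Mzb1 and Sec11c was not tested.

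Other genes of the ER machinery had calls mostly in the same direction, in a minority of each list, and each list median was below 0. Of 28 ER chaperone and folding genes, 4 fell in labelled knockout and none rose: Calr (log2 fold change −1.17), P4hb (−1.22), Pdia6 (−0.84) and Ero1l (−1.69). The list's median was −0.62. Of 23 translocation and signal peptidase genes 4 fell and none rose (median −0.35), among them Sec61a1 (−1.53), the pore subunit, and Spcs1 (−0.86), a signal peptidase subunit like Sec11c. N-glycosylation had 5 of 17 lower (median −0.64), with the oligosaccharyltransferase subunits Ddost (−1.64), Rpn2 (−1.37) and Stt3a (−1.02). ER-associated degradation had 4 of 20 lower and 1 higher (median −0.74), including Derl2 (−0.95, SE 0.18, limma adjusted p = 0.00891) and Edem1 (−1.60). The background shares were 5.09% lower and 8.54% higher.

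Among the named relatives, Fkbp2 fell (−0.97, SE 0.25, limma adjusted p = 0.0357), as did Derl2 and Pdia6. Derl1 (−0.98, limma adjusted p = 0.0515) and Pdia4 (−0.76, limma adjusted p = 0.163) did not pass, nor did Sec11a (−0.34, 95% interval −0.82 to 0.14), Hnrnpl (0.35) or Eaf1 (−0.79). Ell3 was called higher, at 141 ± 23.9 CPM in labelled knockout (SD, n = 4) and 1.65 ± 2.77 CPM in labelled wild type (SD, n = 3). It passes the 10 CPM filter only through the libraries labelled knockout. The filter thus sets its direction, and its log2 fold change of 6.24 is a description. Ell3 was plentiful in naive cells too, at 70.4 ± 17.5 CPM in labelled wild type (SD, n = 3), and close to 0 in secreting cells. Of 15 elongation genes 2 rose and none fell, Ell3 with that limit and Larp7 (1.19). Of 17 genes of immunoglobulin pre-mRNA processing 2 rose and none fell, Srsf3 (1.00) and Hnrnph2 (0.63). FK506-binding proteins had 1 higher, Fkbp3 (0.90), and 1 lower, Fkbp2, of 7.

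The transcription factor lists split. Of 9 B cell factors 7 rose and none fell, with Id3 (2.67), Ets1 (2.35), Spib (2.32) and Ebf1 (1.73). Of 11 plasma cell factors 4 rose and 5 fell, with Zbtb20 (3.44) and Pou2f2 (3.02) up and Xbp1 and Irf4 (−2.51, SE 0.43, limma adjusted p = 0.00570) down. Among all genes 8.54% were called higher and 5.09% lower. Both lists hold genes that pass the 10 CPM filter only through the group where they are high, which sets their direction. Examples are Bcl6 (34.0 CPM in labelled knockout, 1.03 CPM in labelled wild type) and Prdm1 (7.09 and 82.2 CPM). Among the 4 tested partners of polymeric immunoglobulin, Fcmr (0.58), the IgM receptor, rose and Ighm fell.

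In naive cells no member passed. Of 8832 genes limma called 0 (0%). The smallest adjusted p was 0.728, 587 genes had an unadjusted p under 0.05, and all 14 alternatives called 0 members. The 5 members tested were Jchain (0.46, 95% interval 0.04 to 0.89, limma adjusted p = 0.740), Ell2 (0.54, −0.11 to 1.20), Txndc5 (0.20, −0.21 to 0.61), Mzb1 (0.02, −0.33 to 0.36) and Sec11c (−0.07, −0.45 to 0.30). Jchain overlapped, with labelled-knockout replicate 3 at 449 CPM below the highest library labelled wild type at 467 CPM. Eaf2, too low to test, had 8.99, 2.86 and 1.72 CPM in labelled knockout, all above the 0.536 to 1.29 CPM of labelled wild type; of the tested genes, 5.99% did not overlap upward and 7.61% downward. None of the 10 gene lists had a called member in naive cells.

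The difference between the labelled genotype effects was then tested, germinal centre minus naive, with 13 libraries in 1 fit. Each effect was taken within its own table. The fit had no term for the mouse, though mice may be shared between the cell types. It also shared 1 estimate of the spread, though libraries correlated at 0.643 to 0.716 within labelled-knockout germinal centre and 0.891 to 0.911 within labelled-wild-type naive cells. Mzb1 was the only 1 of 7 members called, at −1.90 (SE 0.23, 95% interval −2.40 to −1.39, limma adjusted p = 0.000387), where 7.83% of 8871 genes were called, 2.82% lower and 5.02% higher. Its call held in all 22 alternatives run, between −2.07 and −1.76. Sec11c had −1.37 (95% interval −2.27 to −0.46, limma adjusted p = 0.0670), Txndc5 −1.04 (−1.83 to −0.25, limma adjusted p = 0.113) and Ell2 −1.30 (−2.77 to 0.17, limma adjusted p = 0.307). Sec11c passed without labelled-knockout germinal centre replicate 1 (−1.06, limma adjusted p = 0.0313) or replicate 3 (−1.59, limma adjusted p = 0.0188), in a range of 0.0109 to 0.151 over 22 alternatives. Txndc5 passed without labelled-wild-type germinal centre replicate 1 (−1.28, limma adjusted p = 0.0494), in a range of 0.0125 to 0.272. Jchain had 0.55 (−0.76 to 1.86, limma adjusted p = 0.678).

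Across the 19 libraries the members were not one block. Among their 36 pairs the Pearson correlation of log2(CPM + 1) had a median of 0.61, from −0.38 for Txndc5 with Hnrnpll to 0.95 for Jchain with Derl3. These correlations share libraries, depth and the cell type of each group, and are given as descriptions. The genes most like a member, out of 8032 listed in every table and averaging 10 CPM or more, were Trp53inp1 (0.956), Selenom (0.947) and the receptor Tnfrsf17 (0.937) for Jchain. For Mzb1 they were the signal peptide peptidase H13 (0.945), Glipr1 (0.924) and the signal peptidase subunit Spcs1 (0.920). For Sec11c they were Fkbp2 (0.974), the chaperone Hsp90b1 (0.944) and the translocon-associated subunit Ssr4 (0.943).

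For Derl3 the nearest genes were Hid1 (0.923), Trp53inp1 (0.920) and Selenom (0.915), and for Fkbp11 Manf (0.905), Gm5547 (0.902) and Saraf (0.899). Ell2 lay nearest to Hsp90b1 (0.883), Pim1 (0.883) and Herpud1 (0.881), and Eaf2 to Ppp3cc (0.942), Rexo2 (0.931) and Rgcc (0.928). Txndc5 lay nearest to the predicted genes Gm5046 (0.914) and Gm35638 (0.888) and the pseudogene Spcs2-ps (0.882), whose reads may be shared with other loci. Hnrnpll had no gene above 0.781, that of Tbc1d4. The mean profile of the 9 was nearest to Gm5547 (0.955), Saraf (0.955), the ER stress genes Creld2 (0.933), Herpud1 (0.930) and Manf (0.918), and then Pqlc3, Selenom, Slpi, Sdf2l1 and Plpp5 (0.901 to 0.920).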

How the data were processed

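Bulk RNA-seq of 19 libraries is held in 4 tables of CPM deposited by the authors; columns sum to 1000000. Alignment with STAR to mm10 is named in the submitters' processing notes. The sources used here give no counting tool, annotation, strand or filter, so reads of overlapping or near-identical genes are uncertain. The germinal centre table had 0.0001 added to each value, which was subtracted. It lists 17939 genes and the others 19416, of which 19 rows with names turned into dates were left out. A pair of its wild-type columns carry each other's number in the sample titles, and the titles were followed. The step between low values gave the worth of 1 read and the depth. Below 1000 reads, 61.4% to 88.8% of values lay within 0.02 of a whole read, so these are CPM of estimated counts and no count test was used. The floor of 3 reads covers counting error only.

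Levels were summarised in Python 3.11.15 with pandas 2.3.3, numpy 2.4.6 and SciPy 1.17.1, and drawn with matplotlib 3.10.9, as CPM and per 1000000 reads outside rows with an immunoglobulin biotype and Jchain. For genotype effects, limma 3.58.1 in R 4.3.3 (eBayes with trend, two-sided) was run on log2(CPM + 1) for genes averaging 10 CPM or more, within the germinal centre and naive tables, with no covariate and Benjamini-Hochberg adjustment over all tested genes at 0.05. Fold changes on this scale understate those of low genes. The difference of effects was fitted over 13 libraries and 8871 genes. The scripts were tested on simulated data. Across tables, the rule was that groups do not overlap and their means differ at least 2-fold.

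Same-numbered bone marrow and splenic secreting-cell samples deviated together over genes (correlations 0.163, 0.234 and 0.243), each best with its own number, so those numbers were taken to pair the samples. The members and lists were chosen with earlier results of these data known. Named genes are the 9 members, set relatives of each, up to 4 called genes with the smallest adjusted p per list, and the genes with the highest correlation to a member. Alternatives covered the pseudocount, the filter, 2 other scalings, array weights, robust estimation, a replicate block and leaving out each library. Positions are from GENCODE M21.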

Additional observations from a re-analysis of the deposited data

Results flagged for a closer look

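Derl3 in germinal centre B cells labelled knockout had 1 library apart from the rest, replicate 4 at 32.0 CPM against 10.1 to 13.8 CPM in the other 3. Hnrnpll in the same group had replicate 2 at 17.1 CPM against 3.52 to 5.04 CPM in the other 3. These were picked out because the gap to the nearest library was 0.833 and 0.888 of the group's whole range. For groups of 4, 9 values were checked in this way, and chance sets apart about 1 in 20. The labelled genotype effect on Mzb1 differed between cell types, at −1.88 in germinal centre and 0.02 in naive B cells, a difference of −1.90 by its own test (limma adjusted p = 0.000387).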

How the results depend on the processing

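Mzb1 kept its direction and its call in germinal centre cells under all 16 alternatives and in the difference between cell types under all 22. The count of genes called in germinal centre cells, 1162, was 432 with only labelled-knockout replicates 2 to 4 and labelled-wild-type replicates 1 and 2, chosen with the data in view, and 603 to 1134 when 1 library was left out. The lowest counts were 732, 603 and 712 without labelled-wild-type replicate 1, 2 or 3. The split of 728 higher and 434 lower became 591 and 512 with median-of-ratios size factors, which moved the median log2 fold change of all genes to −0.08 from 0.03.

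The count of members called in germinal centre cells, 2, was 4 with array weights (3 lower, 1 higher), 4 with a replicate block, and 1 to 3 when 1 library was left out. In the difference between cell types, 1 member was called, against 2 with array weights, 3 with a replicate block and 1 to 2 when 1 library was left out. Numbers did not pair the samples of the 2 genotypes (correlations of same-numbered deviations 0.079, 0.001 and 0.008 in germinal centre and −0.047, 0.038 and −0.034 in naive cells). The block, which in effect sets aside labelled-knockout replicate 4, also called Jchain (0.88, limma adjusted p = 0.0217) and Txndc5 (−0.99, limma adjusted p = 0.0281), lowered the genes called to 831 and changed no call in naive cells. Array weights also called Txndc5 (−0.88, limma adjusted p = 0.0498) and Eaf2 (1.07, limma adjusted p = 0.0272).

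Signs turned for values that were never called, and the cause was not tested. Derl3 in germinal centre cells became −0.17 with the replicate block and ran from −0.45 to 0.66 when 1 library was left out. In naive cells Sec11c ran from −0.16 to 0.033 and Mzb1 from −0.075 to 0.19. In the difference, Derl3 ran from −0.36 to 1.11 and Eaf2 from −0.73 to 0.21. Of the ratios across tables, 42 values moved by more than 1 SD under an alternative, all with another scaling, and Txndc5 in bone marrow over spleen changed sign (to 0.36 outside immunoglobulin, 0.34 with size factors and 0.0071 without splenic replicate 1, against −0.17). At the floor of 3 reads (0.139 to 0.293 CPM) nothing can be said of Hnrnpll in naive cells.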
